A study of Mus musculus with 8 samples.

Results

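The 55 genes described here run the cell cycle and copy DNA. They were chosen by name, from a list of replication, cyclin, kinase, mitotic and inhibitor genes, out of 22869 gene symbols in the count table, with 1 table row kept for each symbol. All 55 are in the table, and all 55 passed the filter on low counts that left 14940 symbols to test. The study profiled RNA from the hearts of mouse embryos at E12.5, in the C57BL/6 strain. The tissues were the atrioventricular cushion, the swelling from which the valves form, and the ventricle. Each tissue came from embryos labelled wild type and from embryos labelled NfatC1+/-; KLF2fl/fl, called mutants here, which makes 4 groups of 2 libraries each.

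Klf2 is a transcription factor that endothelial and endocardial cells make under blood flow, and Nfatc1 is active in the endocardium. From the labels it is unclear whether NfatC1+/- means a lost copy or a recombinase inserted there, and with it in which cells Klf2 was removed. The series' design text names mice with the floxed Klf2 allele with and without the Nfatc1 allele, while the control libraries are labelled wild type. Whether the controls carry floxed alleles, and whether a library is 1 embryo or a pool, is not given in the sources used here. P-values below measure the spread between these libraries, which may be technical.

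Counts per library ran from 18955733 to 26579215, so a level of 1 CPM (counts scaled to library size with TMM factors) stood for at least 18.7 reads. Klf2 itself was at 17.3 and 12.9 CPM in wild type cushions against 1.96 and 0.651 in mutant cushions, and at 11.7 and 9.19 CPM in wild type ventricles against 0.735 and 0.625 in mutant ventricles, so the Klf2 levels go with the genotype labels. Of 14 cushion mesenchyme markers, all 14 were positive in the wild type cushion against the ventricle, and 8 passed the test (summed level 9976 to 21739 CPM in cushion libraries, 2259 to 5793 in ventricle libraries). Of 16 cardiomyocyte markers, 5 were lower there and none higher. The cushion libraries still held 30172 to 47637 CPM of the cardiomyocyte list in all, against 44041 to 103587 in the ventricles. Mutant cushion replicate 2 stood apart on the first principal component, at -22.8 against -54.9 to -46.3 for the other 3 cushion libraries.

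In a dividing cell, D-type cyclins with Cdk4 and Cdk6 release the E2F factors, which switch on the genes for DNA replication. Cdc6 and Cdt1 then load the MCM helicase at origins, ribonucleotide reductase supplies deoxynucleotides, and cyclins E and A with Cdk2 start DNA synthesis. Cyclin B with Cdk1 drives mitosis, when the checkpoint kinases, kinesins and centromere proteins move the chromosomes. In the embryonic heart, cardiomyocytes of the ventricle wall and mesenchymal cells of the cushion both divide.

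The start regions of these genes carry short elements that differ between the S phase genes and the mitotic genes, and 5 are printed here as examples from both sets. They are the 250 bases before the RefSeq gene start (GRCm38.p6, 5′ to 3′ on the gene's strand). Capitals mark matches on either strand (a match on the other strand shows as the reverse complement) to the cell cycle homology region TTTGAA, to the NF-Y box CCAAT, and to the E2F letters TTTGGCGC, TTTCCCGC and TTTCGCGC.
Cdk1 (chr10:69352913-69353162, minus strand): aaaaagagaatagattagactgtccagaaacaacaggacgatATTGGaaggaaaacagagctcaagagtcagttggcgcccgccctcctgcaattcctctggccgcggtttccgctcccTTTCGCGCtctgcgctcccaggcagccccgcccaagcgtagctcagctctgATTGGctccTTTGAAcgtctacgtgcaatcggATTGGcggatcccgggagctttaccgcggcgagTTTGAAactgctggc
Kif11 (chr19:37376132-37376381, plus strand): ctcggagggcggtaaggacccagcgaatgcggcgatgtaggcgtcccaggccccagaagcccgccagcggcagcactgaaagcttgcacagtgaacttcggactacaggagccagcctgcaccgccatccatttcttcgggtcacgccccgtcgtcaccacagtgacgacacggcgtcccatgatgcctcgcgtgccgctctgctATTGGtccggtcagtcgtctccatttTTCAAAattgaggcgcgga
Cenpw (chr10:30200541-30200790, minus strand): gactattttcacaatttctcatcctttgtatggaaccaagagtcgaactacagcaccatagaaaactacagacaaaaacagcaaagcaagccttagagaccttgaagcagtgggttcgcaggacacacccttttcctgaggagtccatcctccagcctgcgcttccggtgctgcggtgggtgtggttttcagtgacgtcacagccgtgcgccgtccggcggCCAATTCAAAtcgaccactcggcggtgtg
Rrm2 (chr12:24708004-24708253, plus strand): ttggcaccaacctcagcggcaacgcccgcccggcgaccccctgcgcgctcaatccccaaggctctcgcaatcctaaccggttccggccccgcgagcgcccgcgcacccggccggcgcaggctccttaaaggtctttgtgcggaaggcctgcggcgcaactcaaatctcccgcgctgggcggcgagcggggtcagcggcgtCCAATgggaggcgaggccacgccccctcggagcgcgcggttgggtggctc
Mcm5 (chr8:75109259-75109508, plus strand): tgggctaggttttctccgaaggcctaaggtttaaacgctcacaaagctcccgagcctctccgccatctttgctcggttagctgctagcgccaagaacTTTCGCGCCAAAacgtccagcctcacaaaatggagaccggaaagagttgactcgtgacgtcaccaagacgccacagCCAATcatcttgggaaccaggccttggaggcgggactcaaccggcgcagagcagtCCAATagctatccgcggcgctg
The kinase gene Cdk1 holds the TTTGAA letters 71 and 15 bases before its start, 3 NF-Y boxes, and E2F letters at 131 bases. Kif11, the motor that pushes spindle poles apart, and Cenpw, a centromere protein, each hold 1 TTTGAA match beside an NF-Y box, and in Cenpw the matches overlap. In Mcm5, a helicase subunit, the E2F letters on the 2 strands overlap. Thus Mcm5, Kif11 and Cenpw show the split, while Cdk1 holds letters of both kinds and Rrm2 only an NF-Y box.

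Over the 44 members found in the RefSeq promoter table (49 start regions of 300 bases, from 250 before to 50 after the start), TTTGAA lay in 32.7% of the regions against 17.9% of all 32851 regions in the table. It lay in 13 of the 19 regions of the G2 and mitosis members (68.4%) and in 1 of the 14 of the replication members (7.1%). NF-Y boxes were in 71.4% of the members' regions against 37.4% of all, and in 94.7% of the G2 and mitosis regions. The E2F letters showed the reverse split, with 42.9% of the replication regions, 5.3% of the G2 and mitosis regions and 1.8% of all regions. A match describes letters and is no evidence of binding.

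In the wild type, cell cycle genes leaned to the ventricle. Ribonucleotide reductase subunit Rrm2, cyclins E1, E2, A2 and B1, the licensing factor Cdt1, the helicase subunit Gins1 and the mitotic genes Bub1, Kif11, Haus3 and Cenpw were all lower in the cushion, by up to 1.97-fold, and cyclin D1 was higher. By edgeR's quasi-likelihood test with Benjamini-Hochberg adjustment over all 14940 symbols, 12 of the 55 members passed an adjusted p of 0.05, 1 higher and 11 lower in the cushion. That is 21.8% of the members, beside a background of 23.1% of all symbols called, among them 10.6% lower. The share called is close to that of all genes, while the direction is uneven: 43 of the 55 members had a negative log2 fold change, and the median was -0.20 against 0.01 over all symbols. In bulk RNA, fewer dividing cells and less of these RNAs in each cell cannot be told apart.

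**Figure D1:**
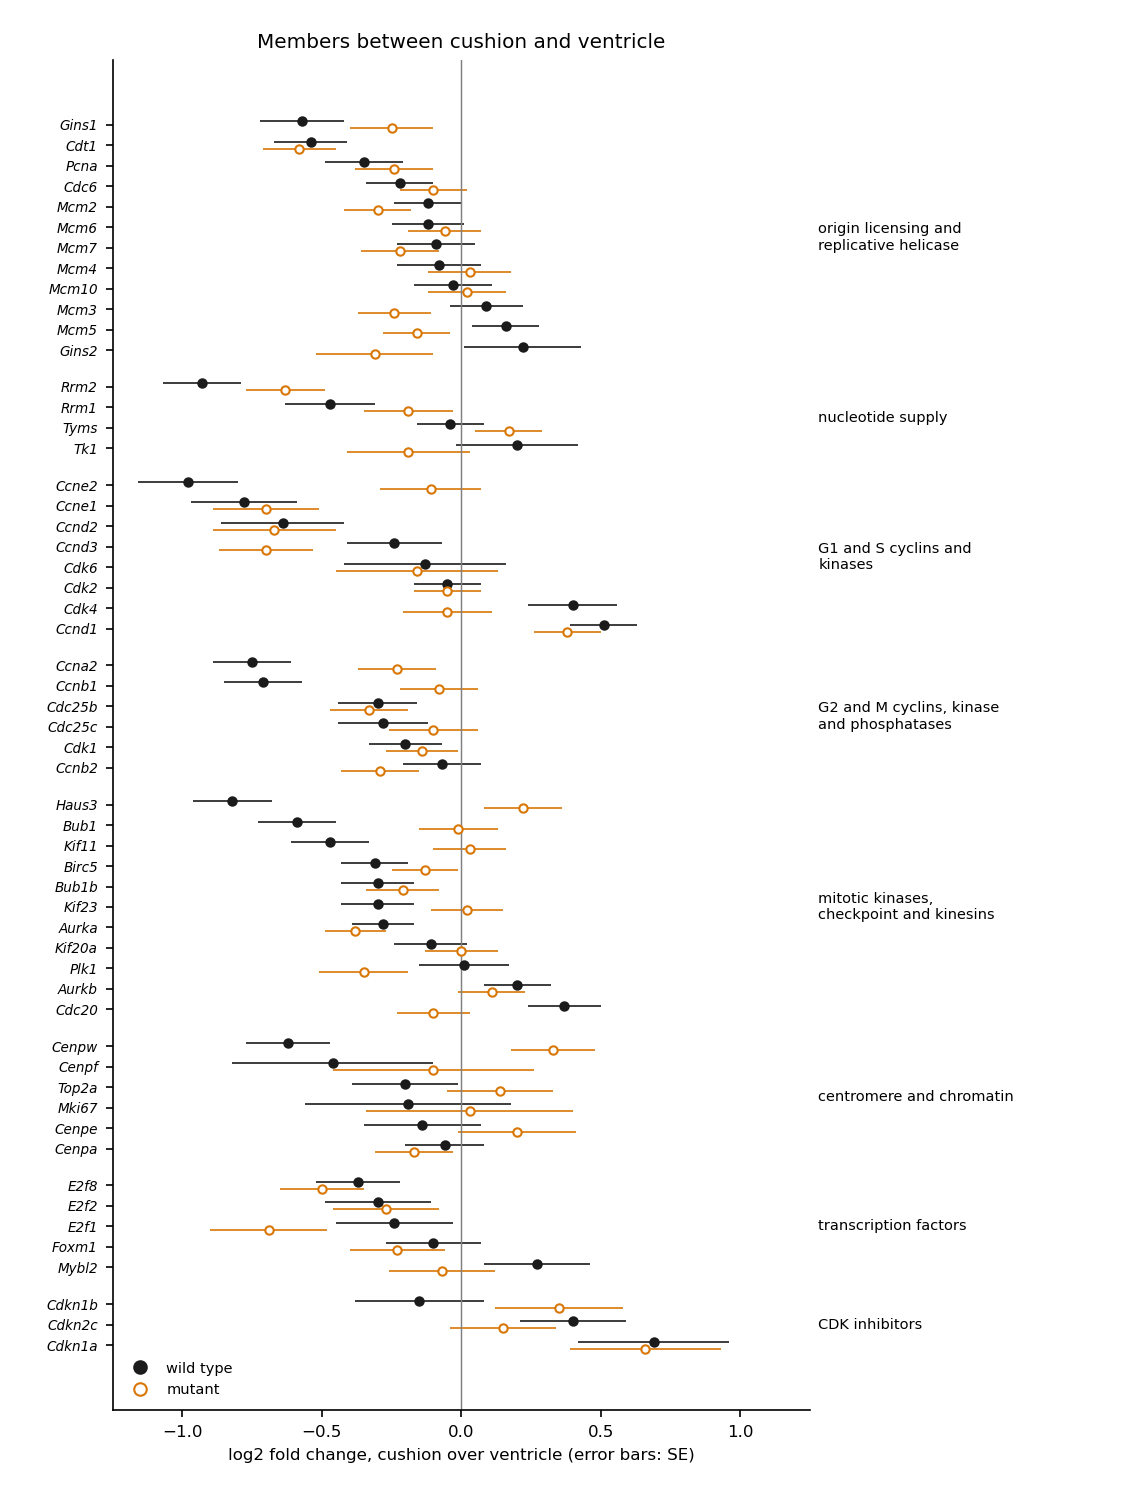
Log2 fold change of each of the 55 members between cushion and ventricle (horizontal axis, with SE bars), in wild type (filled) and mutant (open) embryos, with 2 libraries in each group. Values left of 0 are lower in the cushion; in the wild type 43 of 55 lie there, with Ccne2 at -0.98 and Rrm2 at -0.93, and Ccnd1 and Cdkn1a lie right of 0 in both genotypes.

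Among the 12 genes of origin licensing and the replicative helicase, 2 were lower in the wild type cushion and none was higher, with a group median of -0.10. Cdt1, which loads the helicase, was at 22.7 and 23.8 CPM in wild type cushions, 21.9 and 21.1 in mutant cushions, 32.9 and 34.8 in wild type ventricles and 30.7 and 33.7 in mutant ventricles. Its cushion values lay below its ventricle values in both genotypes with no overlap, and the log2 fold change in wild type was -0.54 ± 0.13 (SE, adjusted p = 0.0207). Gins1, part of the complex that activates the helicase, was at 22.0 and 21.2 CPM in wild type cushions, 22.9 and 27.9 in mutant cushions, 29.9 and 34.3 in wild type ventricles and 29.8 and 30.4 in mutant ventricles, so the cushion libraries lay below the ventricle libraries. Its log2 fold change in wild type was -0.57 ± 0.15 (adjusted p = 0.0273). Gins1 has 2 table rows, of which the smaller holds 46.2% of the reads of the larger. The MCM subunits, which form the ring of the helicase, did not pass: Mcm2, Mcm3, Mcm4, Mcm5, Mcm6 and Mcm7 had log2 fold changes from -0.12 (Mcm2, adjusted p = 0.524) to 0.16 (Mcm5, adjusted p = 0.371). The sliding clamp Pcna, at 55.8 and 44.7 CPM in wild type cushions against 63.7 and 64.4 in wild type ventricles, gave -0.35 ± 0.14 (adjusted p = 0.0945, and 0.0293 with the replicate number as a block). Cdt1 no longer passed without wild type cushion replicate 1 (adjusted p = 0.111), cushion replicate 2 (0.0941) or ventricle replicate 2 (0.11). Gins1 did not pass without any 1 of the 4 wild type libraries (0.0506 to 0.156).

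Of the 4 genes of nucleotide supply, Rrm2 passed. This subunit of ribonucleotide reductase, whose level limits the enzyme through the cycle, was at 174 and 142 CPM in wild type cushions, 165 and 168 in mutant cushions, 299 and 304 in wild type ventricles and 271 and 244 in mutant ventricles. Each of the 4 cushion libraries lay well below each of the 4 ventricle libraries. The wild type log2 fold change was -0.93 ± 0.14 (adjusted p = 0.0037), a 1.91-fold lower level, and Rrm2 passed in each of the 8 fits that left out 1 library. The partner subunit Rrm1 was at 433 and 365 CPM in wild type cushions and 591 and 513 in wild type ventricles, with a log2 fold change of -0.47 ± 0.16 (adjusted p = 0.0648, and 0.00781 with the block). Tyms and Tk1, which make thymidylate, gave -0.04 ± 0.12 and 0.20 ± 0.22 (adjusted p = 0.822 and 0.531).

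Of the 8 genes for G1 and S cyclins and their kinases, 2 were lower in the wild type cushion and 1 was higher. Cyclin E2 (Ccne2), a partner of Cdk2 at the start of S phase, was at 70.4 and 63.5 CPM in wild type cushions, 100.2 and 103 in mutant cushions, 108 and 156 in wild type ventricles and 115 and 104 in mutant ventricles. The wild type cushions were the lowest group, and the wild type ventricles were far apart from each other. Its log2 fold change was -0.98 ± 0.18 (adjusted p = 0.00737). Cyclin E1 (Ccne1), with the same partner, was at 26.2 and 28.2 CPM in wild type cushions, 24.0 and 33.1 in mutant cushions, 41.0 and 52.7 in wild type ventricles and 44.5 and 48.0 in mutant ventricles, and its cushion values lay below its ventricle values in both genotypes. The wild type difference was -0.78 ± 0.19 on the log2 scale (adjusted p = 0.0204). Cyclin D1 (Ccnd1), which links growth signals to the cycle, ran the other way at 239.9 and 251 CPM in wild type cushions, 232 and 228 in mutant cushions, 168 and 177 in wild type ventricles and 179.7 and 174 in mutant ventricles. All 4 cushion libraries were above all 4 ventricle libraries, with a wild type log2 fold change of 0.51 ± 0.12 (adjusted p = 0.0188).

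Another D-type cyclin had the opposite sign. Cyclin D2 (Ccnd2) was at 422 and 377 CPM in wild type cushions, 328 and 388 in mutant cushions, 709 and 536 in wild type ventricles and 679.7 and 462 in mutant ventricles, with every cushion library under every ventricle library. The wild type log2 fold change was -0.64 ± 0.22 (adjusted p = 0.0655, and 0.00846 with the block). The D-cyclin partner Cdk4 was at 462 and 482 CPM in wild type cushions, 405 and 398 in mutant cushions, 327 and 390.0 in wild type ventricles and 369 and 461 in mutant ventricles, so its wild type tissues were apart and its mutant tissues overlapped. Its wild type difference of 0.40 ± 0.16 also passed with the block and not without it (adjusted p = 0.1 without it and 0.0185 with it). Cdk2 gave -0.05 ± 0.12 (adjusted p = 0.798). Ccne2 missed the threshold without wild type cushion replicate 2 (adjusted p = 0.0511). Ccne1 missed it without wild type cushion replicate 1 (0.0974), cushion replicate 2 (0.0743) or ventricle replicate 2 (0.145), and Ccnd1 missed it without any 1 of the 4 wild type libraries (0.0734 to 0.123).

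In the G2 and M group of 6, cyclins A2 and B1 were lower in the wild type cushion. Ccna2, which acts in S phase and into mitosis, was at 332 and 293 CPM in wild type cushions, 379 and 411 in mutant cushions, 492 and 557 in wild type ventricles and 485 and 442 in mutant ventricles. The cushion libraries lay under the ventricle libraries in both genotypes, and the wild type log2 fold change was -0.75 ± 0.14 (adjusted p = 0.00912). Ccnb1, which brings Cdk1 into mitosis, was at 81.0 and 75.5 CPM in wild type cushions, 99.8 and 108 in mutant cushions, 115 and 142 in wild type ventricles and 112 and 108 in mutant ventricles, with a wild type log2 fold change of -0.71 ± 0.14 (adjusted p = 0.00945). In mutants the ranges of Ccnb1 in cushion and ventricle nearly touched. Cdk1 itself was at 223 and 223 CPM in wild type cushions, 225 and 257 in mutant cushions, 243 and 271 in wild type ventricles and 262 and 269 in mutant ventricles, with the wild type cushions the lowest libraries (-0.20 ± 0.13, adjusted p = 0.292), and Ccnb2 gave -0.07 ± 0.14 (adjusted p = 0.733). Without wild type cushion replicate 2 the adjusted p was 0.0836 for Ccna2 and 0.0716 for Ccnb1, and without wild type ventricle replicate 2 it was 0.0728 and 0.0673.

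Of the 11 mitotic kinase, checkpoint and kinesin genes, 3 were lower in the wild type cushion. Haus3, a subunit of the augmin complex that branches spindle microtubules, was at 28.0 and 27.7 CPM in wild type cushions, 42.4 and 43.5 in mutant cushions, 44.5 and 54.1 in wild type ventricles and 38.8 and 35.2 in mutant ventricles. The wild type cushions were the lowest group, the wild type ventricles the highest, and the mutant groups lay between them. Its wild type tissue difference was -0.82 ± 0.14 on the log2 scale (adjusted p = 0.0055), and it passed in each of the 8 fits that left out 1 library. Bub1, a kinase of the spindle checkpoint, was at 138 and 131 CPM in wild type cushions, 161 and 186 in mutant cushions, 191 and 214 in wild type ventricles and 186 and 163 in mutant ventricles, which gave -0.59 ± 0.14 in wild type (adjusted p = 0.0195). Kif11 was at 279 and 254 CPM in wild type cushions, 312 and 344 in mutant cushions, 368 and 368 in wild type ventricles and 341 and 302 in mutant ventricles, which gave -0.47 ± 0.14 (adjusted p = 0.0393). For both genes the wild type cushions lay under all other libraries.

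With the block, 8 of these 11 passed, 1 of them higher, beside 41.4% of all symbols (21.2% higher, 20.1% lower). The higher one, Cdc20, which activates the anaphase-promoting complex, was at 83.4 and 82.6 CPM in wild type cushions, 75.7 and 67.7 in mutant cushions, 63.0 and 65.3 in wild type ventricles and 71.5 and 82.1 in mutant ventricles. Its wild type log2 fold change was 0.37 ± 0.13 (adjusted p = 0.064, and 0.0173 with the block). The 4 lower ones added by the block were the spindle pole kinase Aurka (-0.28 ± 0.11, adjusted p = 0.102 without and 0.0438 with it), the checkpoint kinase Bub1b (0.115 and 0.0432), the passenger protein Birc5 (0.0931 and 0.0268) and the cytokinesis motor Kif23 (0.116 and 0.0396). Aurka was at 60.0 and 59.1 CPM in wild type cushions, 53.4 and 54.3 in mutant cushions, 72.2 and 72.2 in wild type ventricles and 68.2 and 71.7 in mutant ventricles, with all cushion libraries under all ventricle libraries. Polo kinase Plk1, which acts at entry into mitosis, was at 31.2 and 24.9 CPM in wild type cushions, 23.7 and 20.8 in mutant cushions, 30.2 and 25.4 in wild type ventricles and 28.7 and 27.8 in mutant ventricles; its wild type tissues overlapped, and the mutant cushions were the lowest. Bub1 missed the threshold without wild type cushion replicate 1 (adjusted p = 0.0804), cushion replicate 2 (0.119) or ventricle replicate 2 (0.116). Kif11 missed it without any 1 of the 4 wild type libraries (0.105 to 0.235), mutant cushion replicate 1 (0.052) or mutant cushion replicate 2 (0.0538).

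Among the 6 centromere and chromatin genes, Cenpw was lower in the wild type cushion. It was at 11.8 and 10.4 CPM in wild type cushions, 17.5 and 18.2 in mutant cushions, 16.5 and 17.7 in wild type ventricles and 14.3 and 14.2 in mutant ventricles, with the wild type cushions lowest, and gave -0.62 ± 0.15 (adjusted p = 0.0204). It missed the threshold without any 1 of the 4 wild type libraries (0.0505 to 0.137). The proliferation marker Mki67 was at 949 and 705 CPM in wild type cushions, 890.4 and 811 in mutant cushions, 1216 and 668 in wild type ventricles and 1084 and 584 in mutant ventricles, and its wild type tissues overlapped (-0.19 ± 0.37, adjusted p = 0.745). Top2a, the topoisomerase that untangles chromosomes, gave -0.20 ± 0.19 (adjusted p = 0.451), and the kinetochore protein Cenpf -0.46 ± 0.36 (adjusted p = 0.39, and 0.0415 with the block).

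None of the 5 transcription factor genes and none of the 3 inhibitor genes passed in the wild type without the block. E2f8, a repressor among the E2F factors, was at 25.0 and 24.3 CPM in wild type cushions and 33.0 and 30.9 in wild type ventricles (-0.37 ± 0.15, adjusted p = 0.109, and 0.0323 with the block). The activator E2f1 was at 10.3 and 13.4 CPM in wild type cushions, 8.44 and 9.29 in mutant cushions, 13.2 and 14.7 in wild type ventricles and 12.1 and 16.5 in mutant ventricles, with the mutant cushions lowest. Foxm1, an activator of mitotic genes, was at 36.9 and 33.9 CPM in wild type cushions, 31.5 and 28.5 in mutant cushions, 42.7 and 33.0 in wild type ventricles and 38.8 and 31.3 in mutant ventricles, where the 2 replicates of each ventricle group were far apart. In wild type E2f1 gave -0.24 ± 0.21 and Foxm1 -0.10 ± 0.17 (adjusted p = 0.439 and 0.709). Cdkn1a, the inhibitor induced by p53, was at 12.1 and 10.1 CPM in wild type cushions, 12.6 and 8.68 in mutant cushions, 8.34 and 5.39 in wild type ventricles and 7.31 and 6.07 in mutant ventricles, so every cushion library was above every ventricle library. Its wild type log2 fold change of 0.69 ± 0.27 did not pass without the block (adjusted p = 0.0976) and passed with it (0.00716). Cdkn1b, which holds Cdk2 in check in quiescent cells, was at 43.9 and 35.5 CPM in wild type cushions, 64.4 and 38.7 in mutant cushions, 41.2 and 46.8 in wild type ventricles and 43.1 and 37.8 in mutant ventricles; mutant cushion replicate 1 stood above the rest, and the other 7 libraries overlapped. Its log2 fold change was -0.15 ± 0.23 in wild type tissues (adjusted p = 0.675) and 0.35 ± 0.23 in mutant tissues (adjusted p = 0.404). Cdkn2c, an inhibitor of Cdk4 and Cdk6, was at 13.3 and 11.2 CPM in wild type cushions, 12.6 and 10.3 in mutant cushions, 8.61 and 9.93 in wild type ventricles and 9.52 and 11.1 in mutant ventricles. It was above the ventricle in the wild type cushion without overlap, while the mutant tissues overlapped (0.40 ± 0.19 and 0.15 ± 0.19, adjusted p = 0.164 and 0.686).

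**Figure D2:**
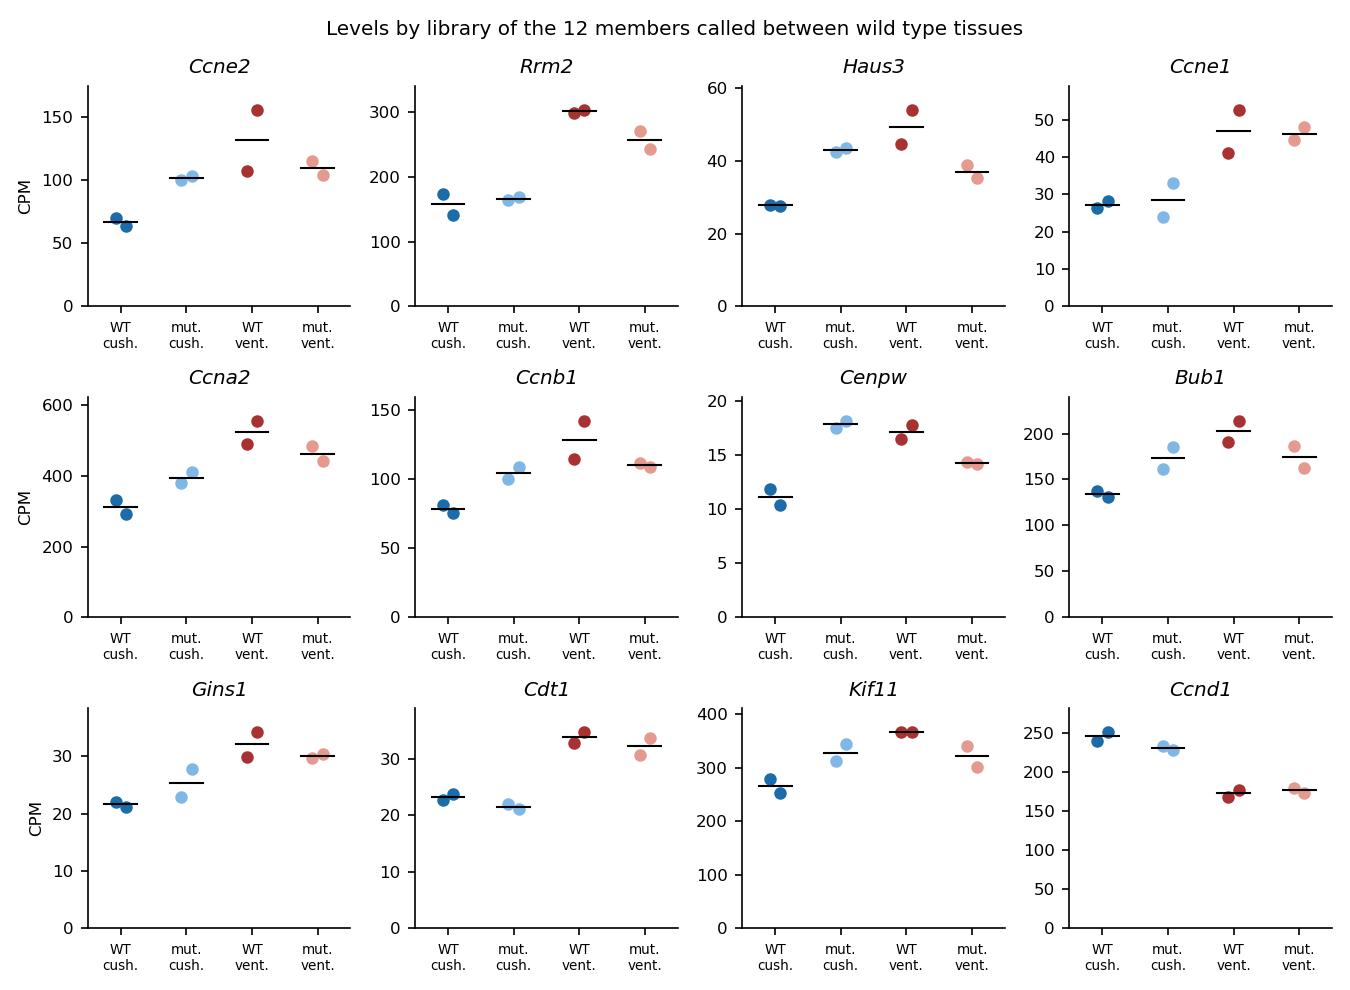
Level in CPM (vertical axes, from 0) of the 12 members that passed between wild type tissues, 1 point for each of the 8 libraries, with a line at the mean of each group. For 11 genes the wild type cushion points lie under the wild type ventricle points, and for Ccnd1 over them. For Ccne2, Ccna2, Ccnb1, Haus3, Bub1, Kif11 and Cenpw the mutant cushions lie well above the wild type cushions.

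With the replicate number as a block, 24 members passed in the wild type (4 higher, 20 lower), beside 41.4% of all symbols (21.2% higher, 20.1% lower). DESeq2 called 14 (25.5%, beside 22.8% of all symbols) and limma-voom 12 (21.8%, beside 22.2%). The count changed when 1 library was left out, and several of the calls above were then lost. The share of all symbols called in those fits is not given here, so that change cannot be read as a result about the members. The groups did not overlap for 36 members, 8 higher and 28 lower, which is 65.5% of them beside 65.3% of all symbols (33.5% higher, 31.8% lower). Besides the cushion mesenchyme and cardiomyocyte lists given above, 1 of 11 erythroid markers was positive in the wild type cushion against the ventricle (median -1.49, beside -0.82 for the cardiomyocyte list; none passed, and with the block 1 was higher and 8 lower), as was 1 of 9 epicardium markers (median -0.72, 1 higher and 4 lower). In mutants these medians were -1.20, -1.06 and -0.68 for the erythroid, cardiomyocyte and epicardium lists. The part of these cell types in the differences was not tested.

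In mutant embryos, Cdt1, Rrm2 and cyclin D3 were lower in the cushion, and no member was higher. The 3 called members are 5.45% of the list, beside a background of 9.42% of all symbols (6.16% higher, 3.26% lower). The member median was -0.13, and 40 of 55 had a negative log2 fold change. Cdt1 gave -0.58 ± 0.13 (adjusted p = 0.0278) and Rrm2 -0.63 ± 0.14 (adjusted p = 0.0286), which are the 2 members that passed in both genotypes. Cyclin D3 (Ccnd3) was at 112 and 136 CPM in wild type cushions, 106 and 100.5 in mutant cushions, 139.9 and 153 in wild type ventricles and 144 and 192 in mutant ventricles. Its cushion and ventricle libraries did not overlap in either genotype, with -0.70 ± 0.17 in mutants (adjusted p = 0.0367) and -0.24 ± 0.17 in wild type (adjusted p = 0.334).

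With the block, 11 members passed in mutants (2 higher, 9 lower), beside 23.9% of all symbols (13.4% higher, 10.5% lower). These included Ccne1 (-0.70 ± 0.19, adjusted p = 0.0522 without and 0.00108 with the block), E2f1 (-0.69 ± 0.21, 0.0801 and 0.00742), Ccnd1 (0.38 ± 0.12, 0.0838 and 0.0188) and Cdkn1a (0.66 ± 0.27, 0.168 and 0.0181). Ccnd1 and Cdkn1a were the higher ones. DESeq2 called 5 members (9.09%, beside 11.8% of all symbols), limma-voom 4 (7.27%, beside 9.44%), and a fit of the 4 mutant libraries alone none. The count of 3 also fell in several fits with 1 library left out. Leaving out a wild type library could lower it too, since the groups share 1 estimate of the spread. The share of all symbols called in those fits is not given here, so that fall cannot be read as a result about the members. The groups did not overlap for 33 members (60.0%, beside 53.1% of all symbols), 6 higher and 27 lower, beside 28.9% and 24.2% of all symbols.

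Adjusted p values of the 3 mutant calls moved past the threshold in several of these fits. For Cdt1 they were 0.161 and 0.104 with mutant cushion replicate 1 or 2 left out, 0.147 with mutant ventricle replicate 2 left out and 0.0515 with wild type cushion replicate 2 left out. For Rrm2 they were 0.181, 0.0842, 0.0941 and 0.0812 without mutant cushion replicates 1 and 2 and mutant ventricle replicates 1 and 2, and 0.0517 without wild type ventricle replicate 2. For Ccnd3 they were 0.172 and 0.124 without mutant cushion replicates 1 and 2, 0.0535 and 0.0661 without wild type ventricle replicates 1 and 2, and 0.207 without mutant ventricle replicate 2.

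The wild type and mutant tissue comparisons share no library. Over the 55 members their log2 fold changes had Pearson's r of 0.40 and Spearman's rho of 0.30, a description across genes that share library depth and base composition. The sign was the same for 36 members, 32 of them negative. The values lay farthest apart for Ccne2, at -0.98 in wild type and -0.11 in mutants, Haus3, at -0.82 and 0.22, and Cenpw, at -0.62 and 0.33. The test of that difference is the genotype by tissue term below, which no member passed.

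The genotypes were compared within each tissue. No member passed between mutant and wild type cushions or between mutant and wild type ventricles by edgeR, DESeq2 or limma-voom. In the cushion, 28 members had positive and 27 negative log2 fold changes (median 0.01), and in the ventricle 20 and 35 (median -0.05). At an unadjusted p under 0.05, edgeR gave 7 members in the cushion, 6 higher and 1 lower, beside 11.4% of all symbols (6.14% higher, 5.23% lower). In the ventricle it gave 1, beside 2.29% of all symbols. At the adjusted threshold, 0.0% of all symbols were called in each. Summed over the 55 members, the level was 8612 and 7739 CPM in wild type cushions, 8650 and 8685 in mutant cushions, 10302 and 9170 in wild type ventricles and 9979 and 8559 in mutant ventricles. The summed levels of the genotypes overlapped in the ventricle, and in the cushion both mutant sums lay above both wild type sums, while the wild type pair had an SD of 617 CPM.

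The members higher in the cushion at an unadjusted p under 0.05 were mitotic genes or cyclins, kinds that also make up much of the list. Haus3, Cenpw, Ccne2, Ccnb1, Bub1 and Ccna2 stood higher in both mutant cushions than in both wild type cushions, at the levels given above. Their log2 fold changes were 0.68 ± 0.15 for Cenpw, 0.63 ± 0.14 for Haus3, 0.60 ± 0.18 for Ccne2, 0.41 ± 0.14 for Ccnb1, 0.37 ± 0.14 for Bub1 and 0.34 ± 0.14 for Ccna2, each with an edgeR adjusted p of 0.435. With the replicate number as a block, Haus3 (adjusted p = 0.0371) and Cenpw (0.0497) passed, 2 of 55 members or 3.64%, beside 0.863% of all symbols (0.295% higher, 0.569% lower). In several blocked fits with 1 library left out, at least 1 of these genes did not pass. The share of all symbols called in those fits is not given here. Marker lists also differed between the genotypes in the cushion, with no marker called without the block. Of 11 erythroid markers 9 were positive in mutant cushions (median 0.58, summed level 968 to 3749 CPM against 824 to 1915 in wild type), and of 9 epicardium markers 8 (median 0.54, 307 to 376 CPM against 219 to 272). Of 14 cushion mesenchyme markers 1 was positive (median -0.33, 9976 to 17769 CPM against 10964 to 21739). Of 9 leukocyte markers 8 were positive (median 0.23), and of 16 cardiomyocyte markers 3 (median -0.09). With the block, 1 epicardium marker was higher and 1 cushion mesenchyme marker lower. In mutant ventricles, 11 of 11 erythroid, 8 of 9 epicardium and 4 of 14 cushion mesenchyme markers were positive (medians 0.22, 0.16 and -0.17). The part of these cell types in the members' differences was not tested. The genotype comparison in the cushion shares its wild type libraries with the wild type tissue comparison, in which the members named here were lower in the cushion.

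E2f8 was the member with an unadjusted p under 0.05 in the other direction. It was at 25.0 and 24.3 CPM in wild type cushions, 20.3 and 17.5 in mutant cushions, 33.0 and 30.9 in wild type ventricles and 29.5 and 24.1 in mutant ventricles. The mutant cushions lay under the wild type cushions, and the mutant ventricles under the wild type ventricles. The log2 fold changes were -0.38 ± 0.15 in the cushion (adjusted p = 0.435) and -0.25 ± 0.15 in the ventricle (adjusted p = 0.998), and averaged over the tissues -0.32 ± 0.11 (unadjusted p = 0.0174, adjusted p = 0.999). E2f1 gave -0.42 ± 0.21 and Plk1 -0.33 ± 0.16 in the cushion, against 0.03 and 0.02 in the ventricle. Averaged over tissues, no member passed by edgeR, with 0.0134% of all symbols called. E2f8 was the 1 member with an unadjusted p under 0.05 there, beside 2.86% of all symbols.

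In the ventricle the same genes had values of the other sign. Haus3 gave -0.41 ± 0.14 there (unadjusted p = 0.0157, adjusted p = 0.998), Cenpw -0.27, Ccne2 -0.27 and Ccnb1 -0.22. Cdc20, Gins2 and Ccnd3 were among the highest of the ventricle, at 0.26, 0.26 and 0.20, with -0.21, -0.27 and -0.26 in the cushion. Gins2, another subunit of the helicase activator, was at 18.3 and 21.6 CPM in wild type cushions, 16.2 and 16.9 in mutant cushions, 15.5 and 18.8 in wild type ventricles and 16.6 and 24.6 in mutant ventricles, and its replicates spread widely in both ventricle groups. Over the 55 members the genotype differences of the cushion and the ventricle, which share no library, had Pearson's r of -0.67 and Spearman's rho of -0.64, and 44 of 55 had opposite signs.

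**Figure D3:**
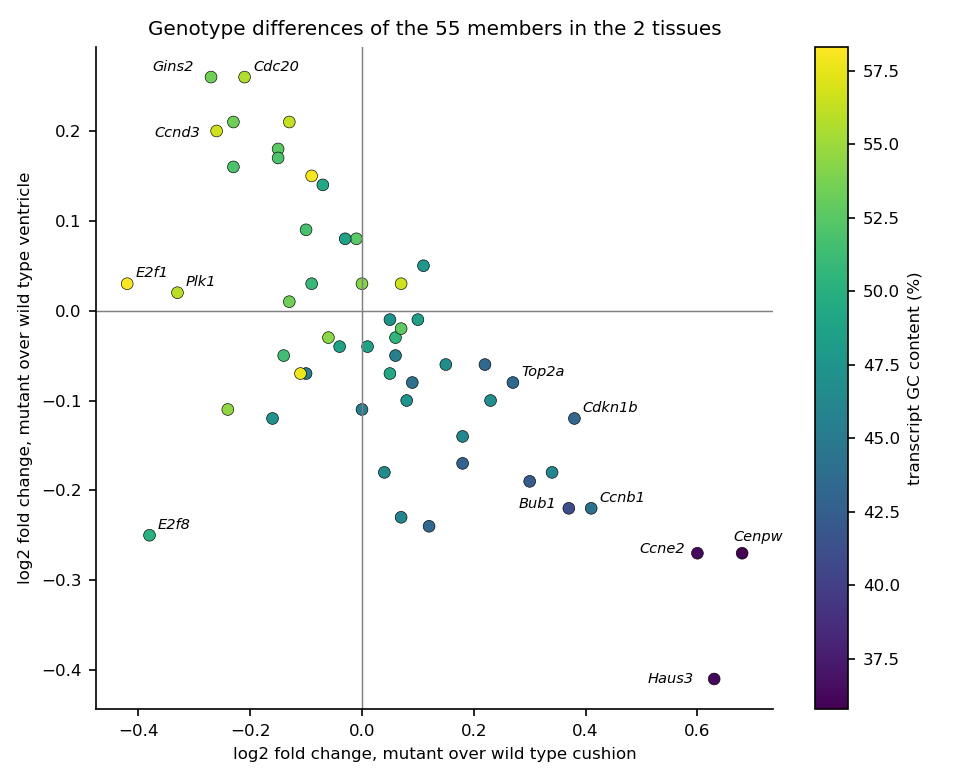
Log2 fold change between mutant and wild type in the cushion (horizontal axis) and in the ventricle (vertical axis) for the 55 members, coloured by the GC content of the transcript in percent. The points run from upper left to lower right, with the AT-rich transcripts of Haus3, Cenpw and Ccne2 at the lower right, and 44 of 55 have opposite signs in the tissues.

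For 7 members (12.7%, beside 7.3% of all symbols), both mutant cushions were above both wild type cushions and both mutant ventricles below both wild type ventricles. These were Cdc6, Ccna2, Ccnb1, Bub1, Kif11, Haus3 and Cenpw, of which all but Cdc6 act in G2 or mitosis. The reverse order held for 4 members (7.3%, beside 5.21% of all symbols), the helicase subunits Mcm2, Mcm3 and Mcm5 and the mitotic activator Cdc20. Mcm5, for which the E2F letters are printed above, was at 151 and 154 CPM in wild type cushions, 145 and 130.2 in mutant cushions, 140.0 and 133 in wild type ventricles and 149.9 and 158 in mutant ventricles, so its groups were separate in both tissues by a few CPM. Mcm2 was at 150.1 and 148 CPM in wild type cushions, 146 and 132 in mutant cushions, 168 and 154 in wild type ventricles and 172 and 171 in mutant ventricles. Mcm3 was at 170.4 and 162 CPM in wild type cushions, 159.8 and 139.5 in mutant cushions, 166 and 145 in wild type ventricles and 176 and 179 in mutant ventricles. In all 3 subunits the lowest library of the mutant cushions lay under every other library. Without overlap between genotypes were 31 members in the cushion (17 higher, 14 lower; 56.4%, beside 48.4% of all symbols) and 18 in the ventricle (5 higher, 13 lower; 32.7%, beside 27.7%).

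The difference between the genotype effects of the 2 tissues was tested as an interaction term. No member passed (0.0% of all symbols did), by edgeR, DESeq2 or limma-voom, and 8 members had an unadjusted p under 0.05 by edgeR, beside 11.9% of all symbols. Haus3 had the largest value among the members, 1.04 ± 0.20 on the log2 scale (unadjusted p = 5.57e-04, adjusted p = 0.415, and 0.0852 with the block). Cenpw followed at 0.95 ± 0.21, Ccne2 at 0.87 ± 0.25, Ccnb1 at 0.63 ± 0.20 and Bub1 at 0.58 ± 0.20, and on the negative side Gins2 was at -0.53 ± 0.30 and Cdc20 at -0.47 ± 0.18. With the block no member passed, but some blocked fits with 1 library left out called members. The share of all symbols called in those fits is not given here, so these calls cannot be read as a result about the members.

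These genotype values moved with the base composition of the transcripts. The GC content of the 55 transcripts ran from 35.8% to 58.3% (median 48.7%, beside 49.6% over all symbols with a value), with Cenpw at 35.8%, Haus3 at 36.3% and Ccne2 at 36.3%. Spearman's rho between GC content and the genotype log2 fold change was -0.80 over the 55 members in the cushion and -0.61 over all symbols. In the ventricle it was 0.76 and 0.46, and for the interaction -0.86 and -0.66. The median GC content was 42.2% for the 7 members higher in mutant cushions and lower in mutant ventricles, and 52.2% for the 4 with the reverse order.

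A fit with smooth terms for GC content and transcript length in each library brought these correlations to -0.20, 0.11 and -0.20 over the members. The SD of the interaction over the 55 members went from 0.36 to 0.18, and 41 of them came closer to 0. Haus3 went from 1.04 to 0.41 and Cenpw from 0.95 to 0.32. In the cushion, Haus3 went from 0.63 to 0.22 (adjusted p = 0.863) and Cenpw from 0.68 to 0.29 (0.871). With correction and block together neither passed (0.318 and 0.38), and 0.482% of all symbols did. With the correction alone, edgeR gave 2 members an unadjusted p under 0.05 in the cushion, 1 higher and 1 lower. Both were transcription factor genes, and the background was 5.81% of all symbols. E2f8, whose transcript has 50.1% GC, hardly moved, from -0.38 to -0.36 (adjusted p = 0.815). Whether base composition itself, or another property of transcripts that goes with it, moved with the mutants was not tested.

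**Figure D4:**
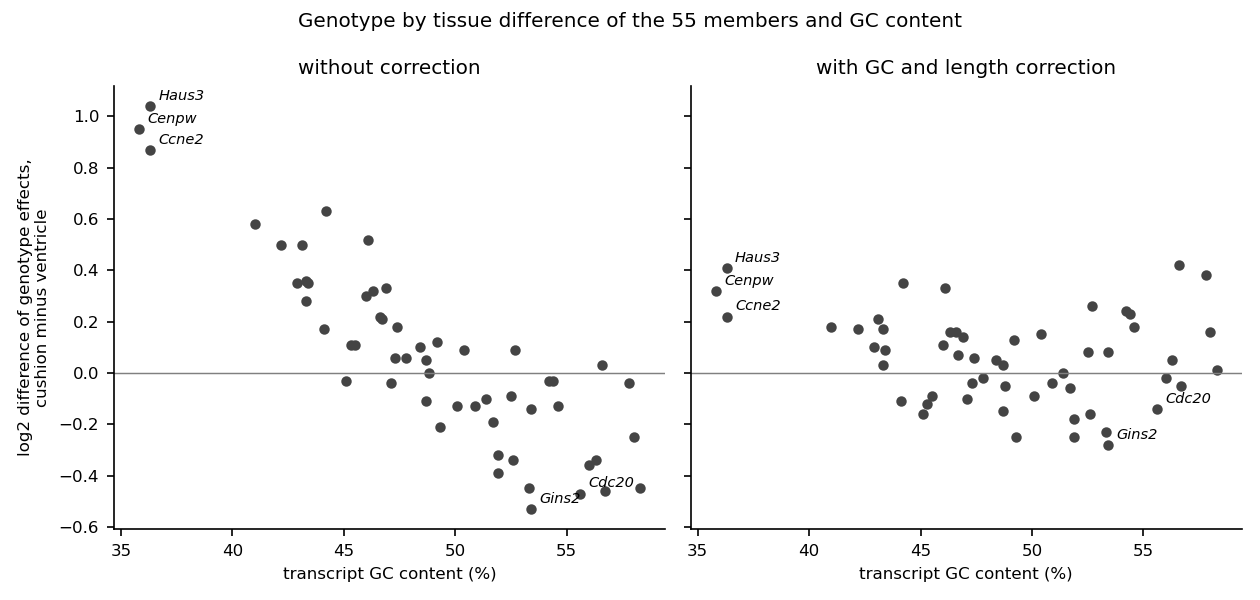
Difference between the genotype effects of cushion and ventricle on the log2 scale (vertical axis) against transcript GC content in percent (horizontal axis) for the 55 members, without correction (left) and with correction for GC content and length (right). On the left the points fall from 1.04 for Haus3 to -0.53 for Gins2 as GC content rises; on the right they lie between -0.28 and 0.42 with no such slope.

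The same correction raised the number of members called between the tissues. In the wild type, 49 of the 55 members then had a negative log2 fold change, with a median of -0.27 beside -0.07 over all symbols (-0.20 beside 0.01 without correction), so members and all symbols both moved down. The SD over the members went from 0.36 to 0.30, and 29 of 55 came closer to 0. There 22 passed (1 higher, 21 lower), beside 24.0% of all symbols (10.3% higher, 13.7% lower). Of the 12 called before, 10 passed; Cenpw (-0.32, adjusted p = 0.131) and Gins1 (-0.33, 0.0544) did not. Higher values came down, to 0.31 for Ccnd1 (adjusted p = 0.0474), 0.20 for Cdk4 (0.241), 0.11 for Cdc20 (0.506) and 0.45 for Cdkn1a (0.299). In mutants, 48 of 55 were negative (median -0.24, beside -0.08), and 11 passed, all lower, beside 14.5% of all symbols (6.83% higher, 7.70% lower). All 11 were also among those lower in the wild type with this correction. With correction and block, 28 members were lower and 2 higher in the wild type cushion, and 25 lower and 2 higher in the mutant cushion, with 21 lower in both. The backgrounds in that fit were 41.2% of all symbols in the wild type (16.3% higher, 24.9% lower) and 31.6% in mutants (12.3% higher, 19.3% lower).

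By role, the corrected fit called more members in several groups. In the wild type cushion 4 of the 5 transcription factor genes were lower, E2f1 (-0.70, adjusted p = 0.0179), E2f2 (-0.77, 0.00748), E2f8 (-0.53, 0.0195) and Foxm1 (-0.49, 0.0331). The G1 and S group had 4 lower and 1 higher of 8, now with all of Ccnd2, Ccnd3, Ccne1 and Ccne2 lower. The G2 and M group had 3 of 6 lower, the mitotic group 5 of 11, licensing and helicase 3 of 12 and nucleotide supply 2 of 4. In this fit 24.0% of all symbols were called (10.3% higher, 13.7% lower). The share of licensing and helicase, 25.0%, is near the share of all symbols called, and groups this small allow no reading of their own. No centromere and chromatin gene and no inhibitor passed. Cdt1, with a GC-rich transcript of 57.8%, went from -0.54 to -0.97 in wild type (adjusted p = 0.00143) and stayed near -0.60 in mutants. Rrm2 was at -0.80 and -0.69.

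Levels can be set beside each other between genes only per transcript length. Over the 8 libraries, the mean per kilobase of transcript was highest for Top2a (229 CPM per kb), Cdk4 (201), Ccna2 (143) and Rrm2 (101), and lowest for Cdk6 (1.57), E2f2 (2.71), Mybl2 (3.59) and Cenpw (3.64). So the D-cyclin partner Cdk4 was far above its relative Cdk6. Among the called members, Cenpw was one of the least abundant on this scale and Ccna2 one of the most abundant. The length used is that of the longest annotated transcript of a gene, 4143 bases for Cenpw. Levels per kilobase depend on that choice, since the transcript made in these tissues may be shorter.

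Some members differed between the 2 libraries of a group by replicate number in the same direction in all 4 groups, and 39 of the 55 did not. Replicate 1 was above replicate 2 in all 4 groups for 11 members (20.0%, beside 19.1% of all symbols) and below it in all 4 for 5 members (9.10%, beside 17.1%), so the members' share was near that of all symbols for the first and under it for the second. Cenpf and Mki67 led the first set, with mean log2 ratios of 0.59 and 0.58, followed by Cdk6 (0.49), Cdkn1a (0.42) and the kinetochore motor Cenpe (0.31). Cdk6, Cenpf and Mki67 have the longest transcripts of the 55, at 11525, 11130 and 10061 bases. In the wild type ventricle Mki67 was at 1216 and 668 CPM and Cenpf at 578 and 326, so the 2 libraries of that group lay far apart for these genes. Gins2, E2f1 and Ccne1 were among those lower in replicate 1. The cardiomyocyte list, too, was higher in replicate 1 of each group, at 103587 against 44041 CPM in wild type ventricles, and the erythroid list at 6952 against 2454. So were the cushion mesenchyme list, at 21739 against 10964 CPM in wild type cushions, and the neural crest list. The leukocyte list was lower in replicate 1 of each group, and the remaining lists had no single direction. The part of these cell types in the members' replicate differences was not tested.

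**Figure D5:**
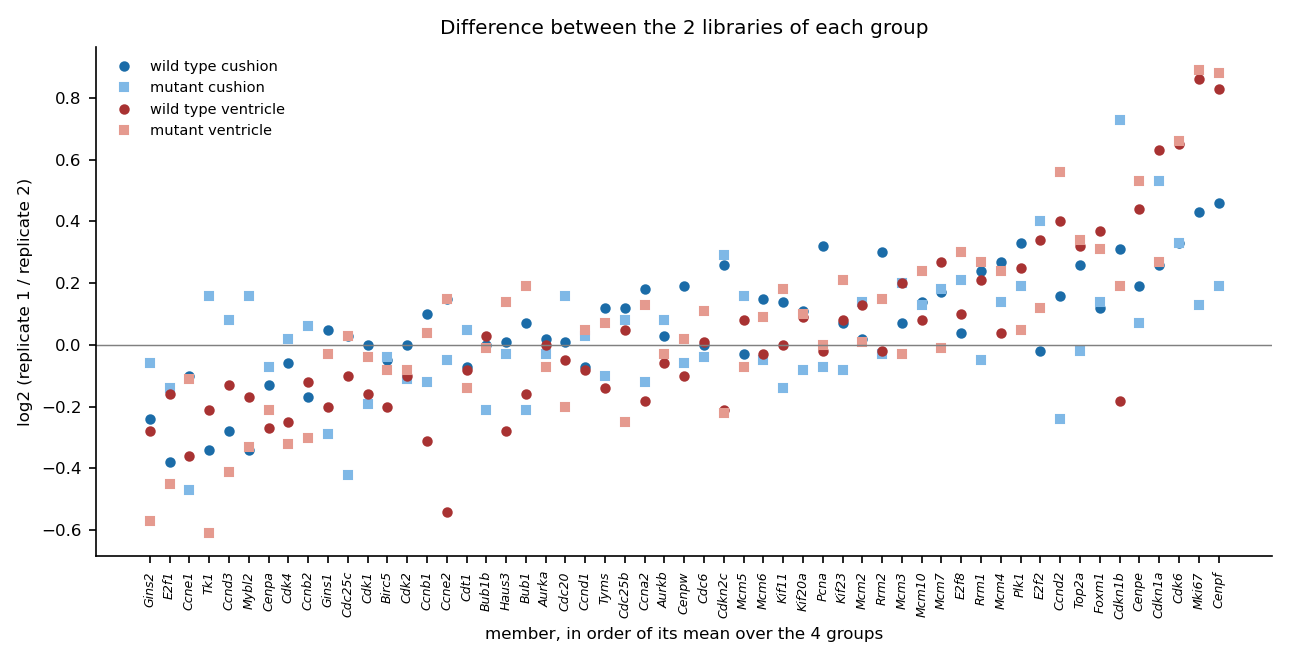
Log2 ratio of replicate 1 to replicate 2 (vertical axis) for each of the 55 members (horizontal axis, in order of their mean), with 1 point for each of the 4 groups. Mki67 and Cenpf, at the right, are above 0 in all 4 groups, and Gins2 and E2f1, at the left, below 0 in all 4.

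A wider list of 149 other cell cycle genes in the table, of which 147 could be tested, was read in the same libraries. It is thus no separate test of the members. Without correction it gave the same lean in wild type. There 46 passed, 3 higher and 43 lower in the cushion (31.3%, beside 23.1% of all symbols), with a median log2 fold change of -0.29. The lowest was the inhibitor Cdkn1c at -1.94 ± 0.21 (adjusted p = 9.64e-04), followed by the nuclease Dna2 at -0.98 and cyclin G1 (Ccng1) at -0.97. The higher ones were Myc (0.83), the mitotic kinesin Kif18b (0.53) and the polymerase subunit Pold1 (0.61), which stood at 0.59, 0.15 and 0.04 with GC and length correction. In mutants 6 of the 147 passed (4.08%, beside 9.42% of all symbols), 1 higher (Ccng2, 0.66) and 5 lower, led by Cdkn1c at -1.60 and with a median of -0.06. With GC and length correction 34 passed in wild type (2 higher, 32 lower; 23.1%, beside 24.0% of all symbols) and 13 in mutants (2 higher, 11 lower; 8.84%, beside 14.5%). With the block 80 passed in wild type (12 higher, 68 lower; 54.4%, beside 41.4%) and 16 in mutants (10.9%, beside 23.9%).

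Between genotypes, none of the 147 passed by edgeR in either tissue, and 97 had a positive log2 fold change in the cushion against 42 in the ventricle. The condensin subunit Smc4 gave 0.56 ± 0.15 in the cushion and -0.36 ± 0.15 in the ventricle (adjusted p = 0.435 and 0.998). Pold1 ran the other way at -0.55 ± 0.18 and 0.33 ± 0.18 (adjusted p = 0.435 and 0.998). With GC and length correction these became 0.30 and -0.19 for Smc4 and -0.17 and 0.22 for Pold1. At an unadjusted p under 0.05 in the cushion were 32 of the 147, 26 higher and 6 lower, beside 11.4% of all symbols (6.14% higher, 5.23% lower). With GC and length correction 5 were (2 higher, 3 lower), beside 5.81% of all symbols.

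Reads of some members may include those of neighbours. In the GENCODE vM21 annotation, exons of 13 members lie under exons of a protein-coding gene on the opposite strand, among them Ccna2, Ccnd1 and Ccne2, and Haus3 shares 108 exon bases with Poln on the same strand. The library kit keeps strand, but whether the counts used it is not given in the sources used here, so the levels of these genes are uncertain to that extent.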

How the data were processed

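RNA from mouse cushions and ventricles was profiled in 8 libraries, 4 groups of 2, from a strand-keeping kit for ribosome-depleted total RNA, per the labels' protocols. The authors deposited read counts per gene; the reads were aligned with Bowtie 0.12.7 to mm9, per the submitters' processing notes. Not given in the sources used here is how reads were assigned to genes (program, annotation, use of strand). The table has 28644 rows for 22869 symbols; where a symbol had several, its deepest row was used.

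Counts were tested with edgeR 4.0.16 (R 4.3.3; TMM, filterByExpr, robust quasi-likelihood fit of all 4 groups), with Benjamini-Hochberg adjustment over 14940 symbols and a threshold of 0.05. Differences are log2 fold changes with SE. Replicate numbers were treated as pairs from the data, not the labels: deviations of same-numbered libraries correlated at r of 0.341 to 0.522 in all 6 pairs of groups, so values with the number as a block stand beside results they change. GC content and length came from the longest GENCODE vM21 transcript of each symbol, for 98.1% of symbols, and entered as splines with 4 degrees of freedom. Other alternatives were DESeq2 1.42.0, limma-voom (limma 3.58.1), DESeq2's size factors, no low-count filter, summed rows, only the groups compared, and each library left out. The fits were tested on counts simulated for the genotype comparison in the cushion, with 50 genes changed at each fold. With the spread of the main fit, that fit recovered 1 at 1.25-fold, 2 at 1.5-fold, 19 at 2-fold and 48 at 4-fold, with 12 false calls. On those counts the block fit recovered 1, 1, 20 and 49, with 17 false calls. With the spread of the block fit, the block fit recovered 2, 21, 48 and 49, with 8 false calls. The main fit recovered 3, 25, 49 and 50 there, with 9 false calls. The higher recovery thus went with the simulated spread and not with the fit. No replicate effect was simulated, so these counts cannot decide between the 2 fits. With the spread of the main fit, that fit missed most genes changed 2-fold. A gene not called between genotypes may therefore still differ by about 2-fold.

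The members and the gene lists were chosen with earlier results of these data known. Values in every library are given for the 5 members with the smallest p in each direction of each comparison and for the 3 CDK inhibitors. They are also given for every member called in the main fit, or with the block between genotypes. From the wider list up to 3 genes in each direction are named. Mki67, Ccnd2 and Mcm2 were added for their pattern after their values were seen. With 2 libraries a group no single-gene permutation test can reach 0.05.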

Additional observations from a re-analysis of the deposited data

How the results depend on the processing

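By edgeR, the members' median log2 fold change stayed negative between tissues in both genotypes under every alternative run. In the wild type, 12 members passed; 24 did with the replicate block, 22 with GC and length correction and 30 with both, and the median of -0.20 became -0.27 with the correction, with or without the block. In mutants 3 passed; 11 did with the block, 11 with the correction, 27 with both, 5 by DESeq2 and 0 with only the groups compared, and the median of -0.13 became -0.17 without the low-count filter and -0.24 with the correction, with or without the block. Between genotypes in the cushion 0 passed, 2 with the block, and the median of 0.01 became 0.06 with the correction, with or without the block. The cause of these shifts was not tested.

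Leaving out 1 library at a time, the count ran from 2 to 13 between wild type tissues (medians -0.25 to -0.14) and from 0 to 3 between mutant tissues (-0.19 to -0.11), and was 0 each time for the other comparisons, with medians of -0.04 to 0.04 between genotypes in the cushion, -0.06 to 0.02 in the ventricle, -0.01 to 0.03 over both and -0.03 to 0.10 for the interaction. With the block as well, the counts were 7, 11, 14, 22, 24 or 25 between wild type tissues, 6, 7, 8, 9, 10 or 11 between mutant tissues, 0, 1, 2 or 3 between genotypes in the cushion and 0, 1, 2, 5 or 8 for the interaction, whose median ran from -0.01 to 0.12.

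Signs reversed for genes that passed no test there. With the correction (without and with the block) Ccnd3 between genotypes in the cushion went to 0.03 and 0.04, Cdkn1a to 0.09 and 0.08 and Cdkn2c to 0.18 and 0.19; Cdkn2c between wild type tissues went to -0.01 and -0.02; between mutant tissues Cenpw went to -0.01 and 0.00 and Haus3 to -0.09 and -0.09; Cdkn1b between genotypes in the ventricle went to 0.00. With 1 library left out the ranges were, between genotypes in the cushion, -0.35 to 0.18 for Cdkn1a, -0.03 to 0.70 for Cdkn1b and -0.27 to 0.07 for Cdkn2c. In the ventricle they were -0.31 to 0.34 for Cdkn1a, -0.38 to 0.18 for Cdkn1b, -0.03 to 0.33 for Cdkn2c and -0.05 to 0.53 for Gins2. They were -0.45 to 0.14 for Cdkn1b between wild type tissues, and -0.06 to 0.67 for Cdkn1b and -0.06 to 0.32 for Cdkn2c between mutant tissues. With 1 library left out and the block, Cdkn1a reached 0.16 in the ventricle and Cdkn2c 0.05 in the cushion. The lowest member level was 5.39 CPM (Cdkn1a). How far the number of libraries, 2 a group, and their depth each limit the precision was not tested.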
